A study of Mus musculus with 4 samples.

Results

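The 270 barcodes described here were selected from 46001 barcodes of the mouse testis by a rule written for early differentiating spermatogonia, the germ cells that have left the stem cell pool but have not yet entered meiosis. The rule has 8 criteria on 19 genes and on the number of genes detected. A barcode was selected when it had 1000 to 4500 detected genes, at least 2 unique molecular identifiers (UMIs, one for each captured RNA molecule) of the germ cell genes *Ddx4* and *Dazl*, at least 1 UMI of *Sohlh1* or *Dnmt3b*, and at least 2 UMIs of *Crabp1* and *Uchl1*. It could carry at most 1 UMI of the meiotic entry genes *Stra8* and *Meioc*, at most 1 UMI of *Dmrtb1*, *Esx1*, *Tex13b* and *Usp26*, and at most 2 of the 7 genes *Zbtb16*, *Egr4*, *Trim71*, *Lin28a*, *Sall4*, *Gfra1* and *Foxf1* that mark undifferentiated spermatogonia. Of the 22567 barcodes within the limits on detected genes, 10420 passed the *Ddx4* and *Dazl* limit and are called germ cells below.

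The cells came from the part of the P14 C57BL/6 testis that holds the rete testis and the adjacent seminiferous tubules. Each genotype had 2 libraries, and a library pooled the tissue of 3 pups with 5000 cells targeted. The pups within a library cannot be told apart, and p-values measure the spread between pools. In *Sox17*-cKO mice (SF1Cre:Sox17flox/flox), a Cre recombinase driven by *Nr5a1* (SF1) sequences, active in the somatic cells of the gonad and not in germ cells, recombines both floxed *Sox17* alleles. The labels give the controls the genotype SF1Cre, whereas the study's methods describe floxed littermates. Whether the controls carried Cre is therefore not settled. Control 1 held 98 of the selected barcodes, control 2 held 35, *Sox17*-cKO 1 held 87 and *Sox17*-cKO 2 held 50, and wherever 4 values are listed below they follow this order of libraries. Together they carried 1611973 UMIs, between 159876 and 606120 per library, of 89969877 to 107203219 UMIs in the whole libraries. Of the barcode sequences, 190 occurred in more than 1 library, which touched 5 selected barcodes, and no 2 selected barcodes shared one.

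Spermatogonia leave the undifferentiated state under retinoic acid, which is made from retinol in Sertoli and germ cells. They then express *Kit*, the receptor for stem cell factor from Sertoli cells, and the transcription factors *Sohlh1* and *Sohlh2*, pass through a series of divisions, and enter meiosis once *Stra8* is induced. *Dnmt3b* encodes a de novo DNA methyltransferase. *Crabp1* encodes a retinoic acid binding protein of the cytoplasm, and *Uchl1* a deubiquitinating enzyme abundant in spermatogonia.

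In GENCODE vM21 on GRCm38, *Sohlh1* lies on chromosome 2 from 25842995 to 25847248 on the minus strand, and *Dnmt3b* on the same chromosome from 153649450 to 153687730 on the plus strand. *Crabp1* lies on chromosome 9 from 54764748 to 54773110, *Uchl1* on chromosome 5 from 66676091 to 66687234 and *Kit* on chromosome 5 from 75574916 to 75656722, all 3 on the plus strand. All 5 genes are protein coding, and the count of each is the number of UMIs assigned to the whole gene.

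The selected barcodes did not form 1 kind of cell, and many of them carried Sertoli RNA at the level of Sertoli cells. Of the 270, 163 (60.4%) held 5 or more UMIs of 34 marker genes of 7 somatic cell types, mainly Sertoli cells, the nursing cells of the tubule. These 163 are called somatic-high, and the other 107 somatic-low. The same limit was reached by 38.5% of undifferentiated and 40.2% of late differentiating spermatogonia and by 46.8% of *Stra8* or *Meioc* positive germ cells, so that it alone does not set a barcode apart from germ cells. The somatic-high barcodes numbered 63 of 98 in control 1, 11 of 35 in control 2, 60 of 87 in *Sox17*-cKO 1 and 29 of 50 in *Sox17*-cKO 2. The limit of 5 UMIs cuts a continuous range, and 48 barcodes lay between 3 and 7 somatic UMIs. A limit that takes depth into account, 20 Sertoli marker UMIs per 10000, divided most barcodes the same way. At or above it lay 139 somatic-high and 1 somatic-low barcode, 51.9% of the 270. Below it lay 24 somatic-high and 106 somatic-low barcodes. This limit counts Sertoli markers only, so that a barcode rich in markers of other somatic cells can lie below it. In control 2, 5 of the 11 somatic-high barcodes reached it. The same limit on Sertoli UMIs was reached by 2.78% of undifferentiated and 16.5% of late differentiating spermatogonia. Among Sertoli-marker cells, barcodes with Sertoli markers and no *Ddx4* or *Dazl* UMI, 90.7% reached it.

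**Figure D1:**
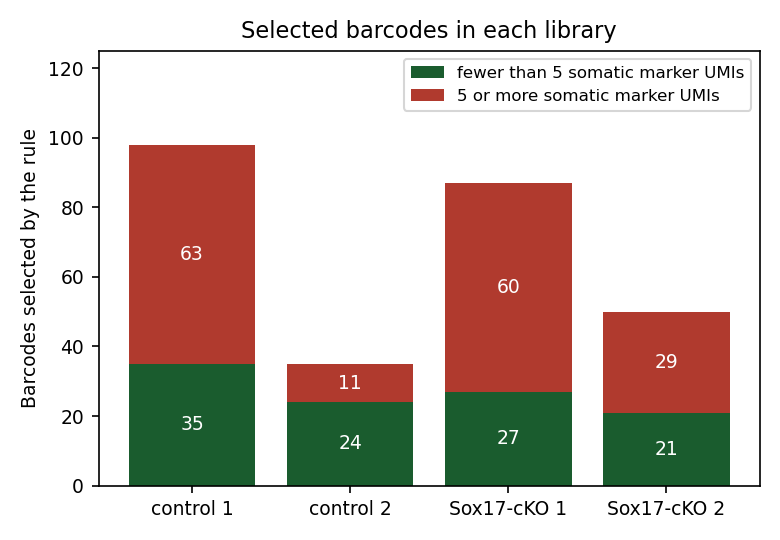
Number of barcodes selected by the rule in each library, as stacked bars with the count written in each part (green: fewer than 5 UMIs of 34 somatic markers; red: 5 or more). The somatic-high part ranged from 11 of 35 in control 2 to 60 of 87 in *Sox17*-cKO 1.

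The somatic-high barcodes had a median of 102 Sertoli marker UMIs per 10000, near the 105 of the 2785 Sertoli-marker cells, which are barcodes without a *Ddx4* or *Dazl* UMI in which at least 3 of 6 Sertoli genes were detected. By library the somatic-high medians were 107, 15.9, 108 and 92.9, against 122, 97.7, 101 and 99.9 in Sertoli-marker cells. Control 2 was thus well below the Sertoli level on this measure. The somatic-low barcodes had a median of 2.99, between the 2.06 of undifferentiated and the 3.49 of late differentiating spermatogonia. For 41 germ cell genes of the piRNA and meiosis lists that the rule does not use, the order was turned around. Their median was 46.7 UMIs per 10000 in somatic-low barcodes, 13.3 in somatic-high barcodes and 7.62 in Sertoli-marker cells. Somatic-low barcodes were thus close to undifferentiated (45.8) and late differentiating (52.7) spermatogonia on this measure.

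**Figure D2:**
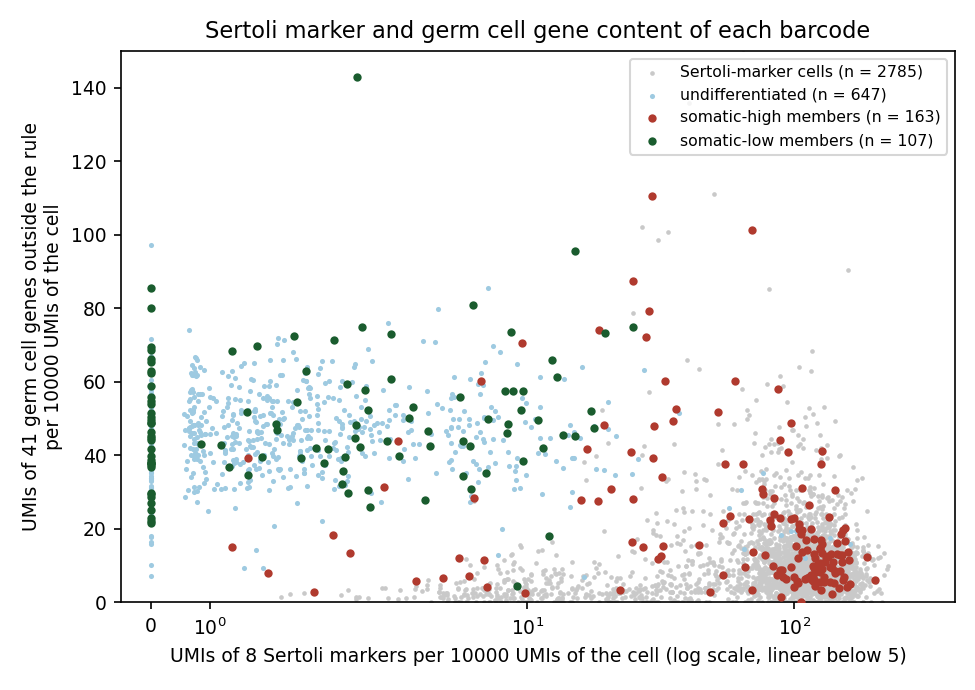
Each point is 1 barcode, placed by its UMIs of 8 Sertoli markers per 10000 UMIs (horizontal, log scale, linear below 5) and of 41 germ cell genes outside the rule per 10000 UMIs (vertical). Most somatic-high barcodes (red, median 102 and 13.3) lie among the Sertoli-marker cells (grey), and somatic-low barcodes (green, median 2.99 and 46.7) among the undifferentiated spermatogonia (blue).

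The size of the division is given by 3 of its own markers, whose difference between the groups the limit itself sets and which are a description. *Clu* is an abundant secreted glycoprotein of Sertoli cells. Levels are given as CPM, the UMIs of a gene scaled to 1000000 UMIs of the class in that library. *Clu* was at 4054, 914, 3813 and 2727 CPM in somatic-high barcodes and at 142, 50.7, 154 and 42.7 CPM in somatic-low barcodes. *Sox9*, the transcription factor that specifies Sertoli cells, was at 293 ± 112 CPM (SD, n = 4 libraries) in somatic-high barcodes and 15.8 ± 12.8 CPM in somatic-low barcodes. *Amh*, the anti-Müllerian hormone, had no UMI among the 367087 UMIs of the somatic-low barcodes, and the other 7 of 8 Sertoli markers were detected there. Summed over the 8 markers, the somatic-high barcodes reached 65.1% to 113% of the level of the Sertoli-marker cells of the same library, and the somatic-low barcodes 1.97% to 4.16%.

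Markers of other somatic cells were uneven between libraries. The 4 peritubular myoid markers summed to 4927 CPM in the somatic-high barcodes of control 2 and 2163 CPM in those of *Sox17*-cKO 2, against 223 and 336 CPM in control 1 and *Sox17*-cKO 1. The 5 stromal markers followed the same order, with 13273 and 8334 CPM against 864 and 1755 CPM. In somatic-low barcodes both sums stayed between 15.8 and 241 CPM. Leydig, macrophage, endothelial and rete markers were sparse, with 4, 1, 2 and 4 UMIs in somatic-low and 19, 6, 23 and 12 UMIs in somatic-high barcodes.

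Somatic-high and somatic-low barcodes also differed in depth. The median was 7269 UMIs per somatic-high and 2862 per somatic-low barcode, beside 11723 in undifferentiated and 6886 in late differentiating spermatogonia. The median share of mitochondrial UMIs was 11.1% and 7.95%. No doublet caller was run, and the upper limit of 4500 detected genes was the only limit on barcodes that may hold more than 1 cell. Whether the somatic UMIs, or the germ cell UMIs, of a somatic-high barcode come from a second cell in the droplet or from free RNA was not tested. Which kind of cell such a barcode holds was therefore not settled.

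The counts that the rule uses were small. *Sohlh1* and not *Dnmt3b* was found in 158 of the 270 barcodes, *Dnmt3b* and not *Sohlh1* in 90, and both in 22. Exactly 1 UMI of these 2 genes was present in 197 barcodes, 140 of the 163 somatic-high and 57 of the 107 somatic-low. *Dnmt3b* alone was the basis for 72 somatic-high and 18 somatic-low barcodes. *Crabp1* had no UMI in 131 barcodes, which passed on *Uchl1* alone. In Sertoli-marker cells *Uchl1* itself was at 325 to 490 CPM, whereas *Crabp1* was at 8.56 to 20.1 CPM and *Sohlh1* at 6.06 to 17.9 CPM. The limit on *Ddx4* and *Dazl* was met with exactly 2 UMIs by 82 somatic-high and 17 somatic-low barcodes.

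These values chose the barcodes and are a description without a test. The 764 barcodes that missed only the *Sohlh1* or *Dnmt3b* criterion were somatic-high in 83.5% and had 28.0 CPM of *Kit*, and the 197 with exactly 1 UMI were somatic-high in 71.1% and had 52.7 CPM of *Kit*. The 123 barcodes with 1 UMI of *Ddx4* and *Dazl* were somatic-high in 93.5%, and the 99 with 2 UMIs in 82.8%. At the upper limit on detected genes, all 28 barcodes within 500 genes above it and all 29 within 500 genes below it were somatic-high.

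The marker *Kit*, which the rule does not use, separated the 2 groups of barcodes. Its level in somatic-low barcodes was 268, 50.7, 340 and 313 CPM, from 34, 4, 31 and 22 UMIs. Control 2 stood apart from the other 3 libraries. In somatic-high barcodes *Kit* was at 18.8, 0, 9.20 and 32.0 CPM, below every somatic-low value. Sertoli-marker cells held 5.65 to 11.3 CPM. *Sohlh2*, the partner of *Sohlh1*, was at 56.0 ± 36.5 CPM (n = 4) in somatic-low and 2.77 ± 3.38 CPM in somatic-high barcodes.

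**Figure D3:**
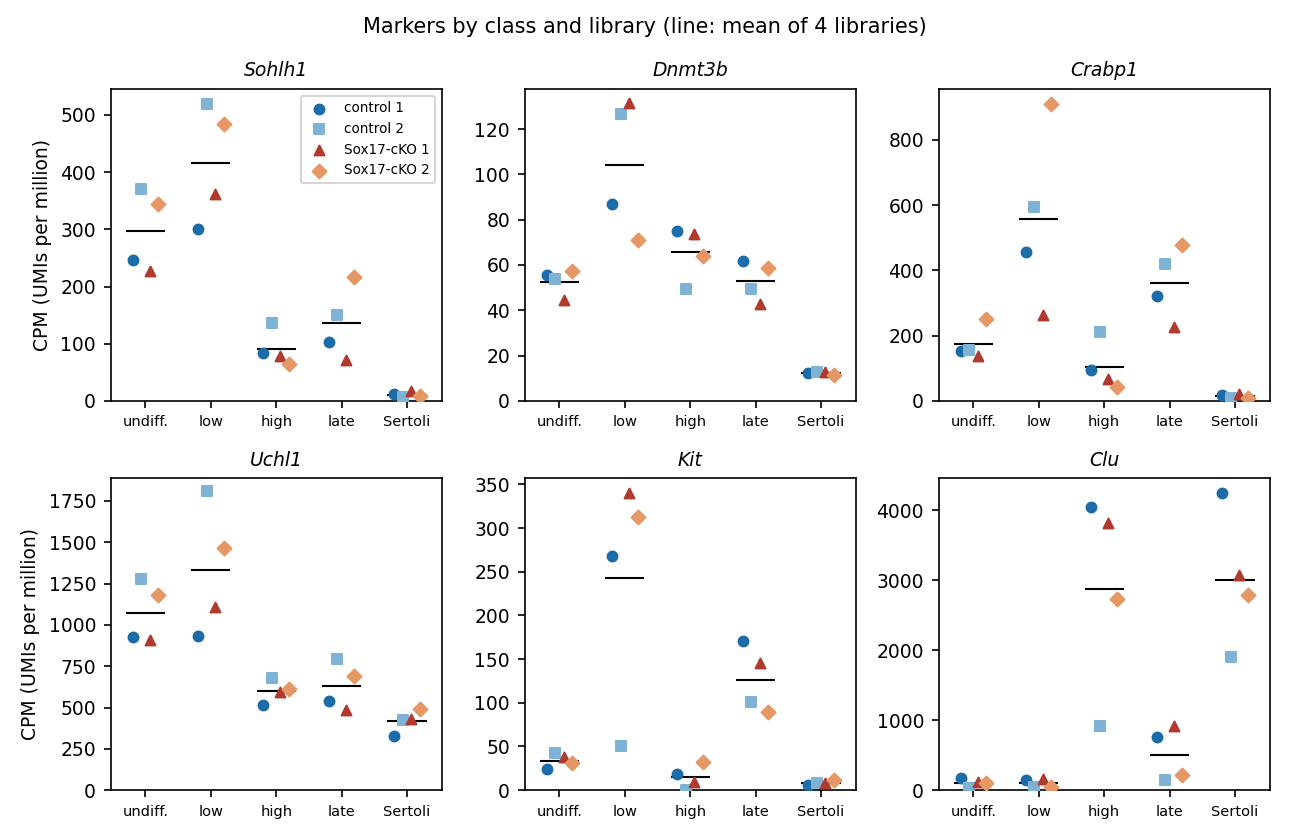
Level in CPM (vertical axes, starting at 0) of 4 genes of the rule, of *Kit* and of the Sertoli gene *Clu*, with 1 point per library and a line at the mean of 4 libraries, in undifferentiated spermatogonia, somatic-low and somatic-high selected barcodes, late differentiating spermatogonia and Sertoli-marker cells. *Kit* reached 268 to 340 CPM in the somatic-low barcodes of 3 libraries and 50.7 CPM in control 2, and *Clu* 914 to 4054 CPM in somatic-high barcodes.

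A *Kit* UMI was present in 36 of the 107 somatic-low barcodes, 13 of 35, 4 of 24, 10 of 27 and 9 of 21 by library. After each barcode was thinned to 2000 UMIs, the share with a *Kit* UMI was 34.3% ± 18.1 (SD, n = 4 libraries) of 89 somatic-low barcodes, with 18 shallower ones left out. It was 2.18% ± 1.63 in somatic-high barcodes, 6.63% ± 2.76 in undifferentiated and 19.3% ± 4.45 in late differentiating spermatogonia. For these shares the 2 neighbouring stages were not limited in somatic UMIs, unlike the somatic-low barcodes. Of their barcodes, 38.5% and 40.2% held 5 or more. The background in Sertoli-marker cells, which should lack *Kit*, was 1.67% ± 0.385 at a median of 5018 UMIs before thinning. The thinned share of somatic-high barcodes lay near this background. Over all 270 barcodes the share was 11.6% ± 6.98 thinned and 19.2% ± 7.89 unthinned. Unthinned shares were 33.4% ± 11.5 in somatic-low, 9.22% ± 8.63 in somatic-high and 3.77% ± 1.48 in Sertoli-marker barcodes. They were 16.6% ± 3.20 in undifferentiated and 45.2% ± 5.55 in late differentiating spermatogonia. Without thinning, the somatic-low mean thus lay below that of the deeper late differentiating barcodes.

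Values of somatic-low barcodes with and without a *Kit* UMI are given without a test because both groups come from the same 4 libraries, with 4 of the 36 and 20 of the 71 from control 2. *Mki67*, a marker of cycling cells, was at 145 CPM with and 32.4 CPM without a *Kit* UMI. The other genes compared in this way were lower with a *Kit* UMI. *Sohlh1* was at 258 CPM with and 496 CPM without one, *Uchl1* at 1091 and 1390 CPM, and *Sycp3* at 297 and 426 CPM. *Stra8* and *Id4* were lower as well, and *Dnmt3b* and *Crabp1* only slightly so. Median depth was 3588 UMIs in barcodes with and 2699 UMIs in barcodes without a *Kit* UMI.

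Across 8903 genes, the mean profile of the somatic-high barcodes had a Pearson r of 0.967 with Sertoli-marker cells and 0.542 with somatic-low barcodes. The profile of the somatic-low barcodes had an r of 0.909 with undifferentiated spermatogonia, 0.895 with late differentiating spermatogonia and 0.500 with Sertoli-marker cells. These correlations are across genes of the same 4 libraries and are a description. Between the 2 groups of selected barcodes, 1457 of 7888 genes measured (18.5%) were at least 2-fold higher in somatic-high barcodes with no overlap of libraries, and 829 (10.5%) were lower. *Nr0b1*, a nuclear receptor of Sertoli cells, was at 196 ± 84.4 CPM in somatic-high barcodes and had no UMI in somatic-low barcodes. *Lin28b*, an RNA-binding protein of germ cells, was at 3.66 ± 3.53 and 83.9 ± 47.5 CPM.

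The levels in the selected barcodes were then set beside those of the stages before and after. Undifferentiated spermatogonia were germ cells with at least 3 of the 7 genes listed above (647 barcodes), and late differentiating spermatogonia were germ cells with at least 2 UMIs of *Dmrtb1*, *Esx1*, *Tex13b* and *Usp26* (1110 barcodes). Both classes were limited to at most 1 UMI of *Stra8* and *Meioc*, and the late differentiating class to at most 2 of the 7 genes. A gene is called higher or lower when its mean CPM differs at least 2-fold with no overlap of the 4 libraries, among genes with a mean of at least 20 CPM in either class. Because the rule chose the classes by expression, these calls are a description and no test was made. The limits are on UMIs and detected genes that are not scaled for depth. A shallow barcode of either neighbouring stage can therefore fall among the selected ones, and how often this occurred was not tested. Median depth was 2862 UMIs in somatic-low barcodes, 11723 in undifferentiated and 6886 in late differentiating spermatogonia.

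Taken as selected, the 270 barcodes held more RNA of *Cidea*, *Sparc*, *Shbg* and *Cldn11* than undifferentiated spermatogonia, 4 of the 8 genes with the largest ratios. Of 7741 genes, 1301 were higher (16.8%) and 744 lower (9.61%), and with TMM-scaled levels the split became 1153 higher and 1038 lower, as the median log2 ratio of all genes moved from -0.03 to -0.17. Against late differentiating spermatogonia, 762 of 7774 genes were higher (9.8%) and 918 lower (11.8%), and 581 of 8204 genes were higher (7.08%) and 215 lower (2.62%) than in both stages. *Cidea*, a lipid droplet protein, was at 210, 106, 247 and 278 CPM in the selected barcodes and at 1.92 to 8.94 CPM in undifferentiated spermatogonia. *Sparc*, a matrix protein, was at 1727 to 4569 CPM against 43.8 to 170 CPM. The same held for *Shbg*, which encodes sex hormone-binding globulin (93.8 to 276 against 1.79 to 6.26 CPM), and for *Cldn11*, a tight junction protein of the blood-testis barrier (206 to 488 against 3.84 to 17.9 CPM). Sertoli-marker cells held 262 ± 54.5 CPM of *Cidea*, 3575 ± 1097 CPM of *Sparc*, 197 ± 45.8 CPM of *Shbg* and 500.1 ± 99.9 CPM of *Cldn11* (n = 4). The 8 Sertoli markers summed to 2846 to 9437 CPM in the selected barcodes.

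The genes furthest below undifferentiated spermatogonia included *Ret*. *Ret*, the signalling receptor for the niche factor GDNF, was at 4.95, 6.25, 1.90 and 0 CPM against 56.3 to 94.0 CPM. *Glis3*, a zinc finger transcription factor, was at 6.25 to 12.5 against 57.2 to 100 CPM, *Pramef12* at 0 to 12.5 against 65.2 to 88.2 CPM, and *Fst*, encoding follistatin, at 0 to 13.2 against 46.0 to 75.1 CPM. *Mki67* was at 28.5 to 53.1 CPM in the selected barcodes and 176 to 314 CPM in late differentiating spermatogonia. *Asf1b*, a histone chaperone of S phase, was at 21.4 ± 4.06 (n = 4) against 119 ± 28.8 CPM.

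Gene groups are given with their summed levels in Sertoli-marker cells, and the part of Sertoli RNA in the counts was not tested. Of 11 retinoic acid genes measured outside the rule, 7 were higher and 0 lower than in undifferentiated spermatogonia, with a median log2 ratio of 2.39 beside -0.03 over all genes. Summed over 17 such genes, the list was at 1228 ± 229 CPM in somatic-high, 317 ± 106 CPM in somatic-low and 1338 ± 189 CPM in Sertoli-marker barcodes. Of 15 glycolysis genes, 6 were higher and 2 lower, where the summed list was at 4863 ± 843 CPM in somatic-high, 1799 ± 479 CPM in somatic-low and 5579 ± 1225 CPM in Sertoli-marker barcodes. Of 16 piRNA pathway genes, which silence transposons in germ cells, 1 was higher and 9 were lower, among them *Piwil2*, *Mael* and *Tdrd1*. The summed piRNA list was at 576 ± 153, 1890 ± 254 and 393 ± 94.7 CPM in the same order. Over all genes, 16.8% were higher and 9.61% lower.

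Among the 107 somatic-low barcodes far fewer genes differed from the neighbouring stages. Both neighbours were limited to barcodes with fewer than 5 somatic UMIs as well (398 undifferentiated and 664 late differentiating). Of 6919 genes, 119 were higher (1.72%) and 322 lower (4.65%) than in undifferentiated spermatogonia. Of 7025 genes, 131 were higher (1.86%) and 520 lower (7.4%) than in late differentiating spermatogonia. The median log2 ratio over all genes was -0.03 and -0.23, beside which the medians of gene groups below stand. Of the 119 genes, 44 were also among the 1301 higher in all selected barcodes, which is 37.0% of the shorter and 3.38% of the longer list. With the limit of 20 Sertoli UMIs per 10000 in place of 5 somatic UMIs, 70 of the 119 and 185 of the 322 genes were called again, and 63 of the 131 and 297 of the 520. At 70271 to 126777 UMIs per library, 1 UMI is 7.89 to 14.2 CPM, so a level of 0 allows up to 23.7 to 42.7 CPM (3 counts). This covers counting error only.

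The genes highest above undifferentiated spermatogonia included *Kit*, *Prss50* and *Ly6k* of the differentiation list. *Kit* stood at 268, 50.7, 340 and 313 CPM, against 22.1 to 39.2 CPM in undifferentiated spermatogonia, a log2 ratio of 2.93 on the scale of CPM plus 1 with an SD over libraries of 1.39. *Prss50*, a testis protease, was at 23.7, 63.4, 76.8 and 114 CPM against 6.24 to 16.7 CPM. *Ly6k*, a membrane-anchored protein of germ cells, was at 63.1, 76.1, 154 and 99.6 CPM against 10.4 to 40.1 CPM. In late differentiating spermatogonia *Kit* was at 154 ± 63.9 CPM, overlapping the somatic-low libraries, *Prss50* at 243 ± 151 CPM and *Ly6k* at 265 ± 99.1 CPM.

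*Cited1*, a transcriptional co-regulator on the X chromosome from 102247381 to 102252181, was at 245, 292, 241 and 342 CPM in somatic-low barcodes, at 36.5 to 78.1 CPM in undifferentiated and at 278 ± 70.5 CPM in late differentiating spermatogonia. The late differentiating libraries overlapped those of the somatic-low barcodes. *Cd63*, a tetraspanin, was at 174, 203, 176 and 356 CPM against 33.9 to 73.0 CPM. *Tmem64*, a transmembrane protein, was at 47.3 to 114 against 11.2 to 24.1 CPM. Sertoli-marker cells held 847 ± 115 CPM of *Cited1* and 293 ± 89.7 CPM of *Cd63*, and the part of remaining Sertoli RNA in these levels was not tested.

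Only 6 of 7477 genes (0.0802%) were higher in somatic-low barcodes than in both neighbours, and 60 (0.802%) were lower. *Fabp5*, a fatty acid-binding protein, was at 110, 76.1, 87.8 and 99.6 CPM against 11.2 to 29.4 CPM in undifferentiated and 39.1 to 51.5 CPM in late differentiating spermatogonia. *Gatm*, an enzyme of creatine synthesis, was at 71.0 to 110 CPM against 22.3 to 43.7 and 28.3 to 62.8 CPM. *Txndc11*, a thioredoxin domain protein, was at 42.7 to 76.8 CPM against 11.2 to 20.9 and 17.2 to 30.9 CPM.

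*Fabp5* and *Gatm* were abundant in Sertoli-marker cells, which held 540 ± 89.2 CPM of *Fabp5* and 1793 ± 233 CPM of *Gatm*. *Txndc11* was at 18.5 ± 2.77 CPM there, below every somatic-low library. The genes lower than in both neighbours included *Zfp36l1*, a factor of mRNA decay (43.4 ± 34.6 CPM against 175 ± 13.2 CPM in undifferentiated spermatogonia), *Zbtb20*, a zinc finger repressor (35.8 ± 26.5 against 101 ± 11.7 CPM), and *Topors*, a ubiquitin and SUMO ligase (32.7 ± 19.0 against 91.3 ± 8.63 CPM).

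**Figure D4:**
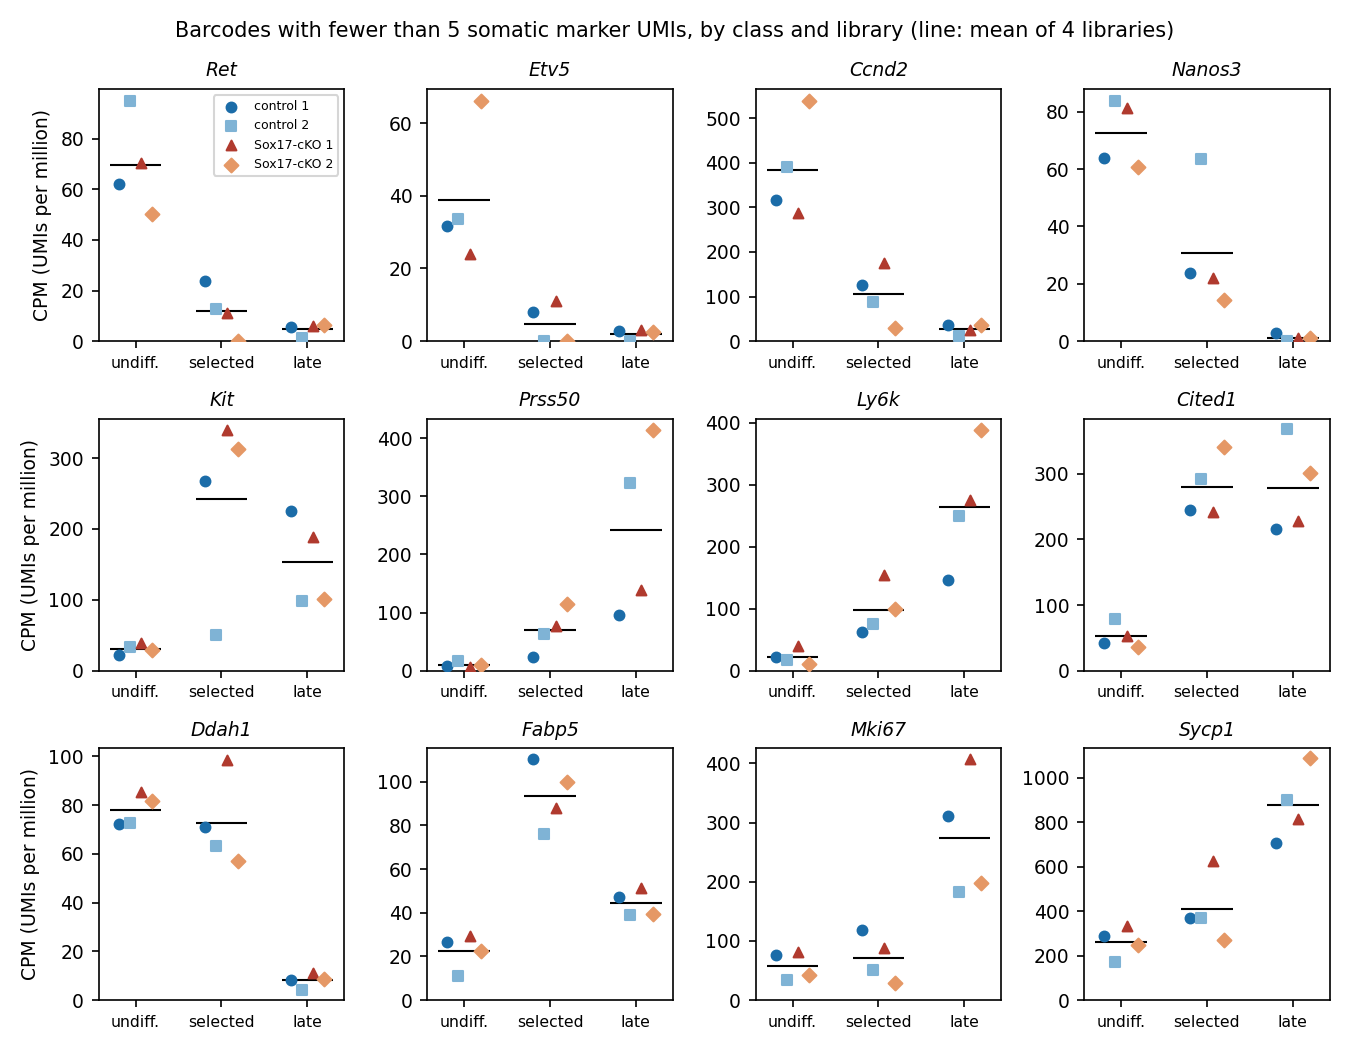
Level in CPM (vertical axes, starting at 0) of 12 genes in undifferentiated spermatogonia, selected barcodes and late differentiating spermatogonia, all limited to barcodes with fewer than 5 somatic marker UMIs, with 1 point per library and a line at the mean of 4 libraries. *Ret*, *Etv5* and *Ccnd2* are highest in undifferentiated spermatogonia, *Kit* and *Fabp5* have their highest mean in the selected barcodes, and *Prss50*, *Ly6k*, *Mki67* and *Sycp1* in late differentiating spermatogonia.

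Of 8 differentiation genes measured outside the rule, 3 were higher (*Kit*, *Ly6k* and *Prss50*) and 1 lower (*Ccnd2*) than in undifferentiated spermatogonia, with a median log2 ratio of 1.12. With the limit of 20 Sertoli UMIs per 10000, *Kit* was no longer called, *Ly6k* and *Prss50* were higher, and *Nanos3* and *Ccnd2* were lower. *Ccnd2*, a D-type cyclin, was at 126, 88.7, 176 and 28.5 CPM against 286 to 539 CPM. *Nanos3*, an RNA-binding protein of spermatogonia, was at 23.7, 63.4, 21.9 and 14.2 CPM, overlapping the undifferentiated libraries (60.9 to 83.7 CPM) and above the late differentiating ones (0 to 2.78 CPM). Of 8 such genes, 2 were higher than in late differentiating spermatogonia, *Nanos3* and the retinoic acid receptor *Rarg*. *Rarg* was at 128 CPM in *Sox17*-cKO 2 and at 21.9 to 25.4 CPM in the other 3 libraries. Under the 20 Sertoli UMI limit, the call of *Rarg* was lost, and *Nanos3* and *Ccnd2* were higher than in late differentiating spermatogonia.

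Of 10 genes measured from the list of undifferentiated spermatogonia, 0 were higher and 3 lower than in that stage, with a median log2 ratio of -0.96. The others were not called. *Ret* was at 23.7, 12.7, 10.97 and 0 CPM against 50.4 to 94.9 CPM. *Etv5*, a transcription factor that maintains the stem cells, had 2 UMIs in the somatic-low barcodes and was at 24.1 to 66.1 CPM in undifferentiated spermatogonia. *Tspan8*, a surface marker of stem cells, was at 10.97 to 15.8 against 16.7 to 46.9 CPM. Of 6 measured against late differentiating spermatogonia, 3 were higher and 0 lower, namely *Id4* (10.97 to 47.3 against 2.69 to 9.27 CPM), *Pou3f1* (55.2 to 87.8 against 21.6 to 45.0 CPM) and *Upp1* (14.2 to 54.9 against 0 to 7.21 CPM). With the limit of 20 Sertoli UMIs per 10000, *Upp1* was the only one of these 3 still called higher than in late differentiating spermatogonia. Against undifferentiated spermatogonia, *Etv5* was then no longer called lower, *Ret* and *Tspan8* still were, and *Id4* and *Foxo1* were called lower as well. Because the rule limits 7 other genes of this list, the direction against undifferentiated spermatogonia is not independent of the selection.

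Genes named for the largest ratios below undifferentiated spermatogonia rested on few molecules. *Pdk1*, which inhibits pyruvate dehydrogenase, was at 55.2, 0, 0 and 14.2 CPM against 97.5 to 172 CPM. *Fst* was at 23.7, 0, 10.97 and 0 CPM against 39.1 to 85.2 CPM. *Dppa4*, a chromatin protein of pluripotent and germ cells, was at 8.66 ± 11.3 CPM against 58.2 ± 28.6 CPM. *Lpp*, *Slc16a11* and *Aplp1* had means of 6.69 to 6.73 CPM, below the 8.17 CPM that 3 counts over all somatic-low barcodes represent, against 53.6 to 64.8 CPM in undifferentiated spermatogonia.

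Against late differentiating spermatogonia, *Ddah1*, an enzyme that degrades methylated arginine, was at 72.5 ± 18.4 CPM in somatic-low barcodes and 8.15 ± 3.03 CPM in the later stage. *Utrn*, encoding utrophin, was at 61.1 ± 19.8 against 8.58 ± 2.63 CPM, and *Nfib*, a transcription factor of the nuclear factor I family, at 60.2 ± 51.0 against 8.13 ± 3.19 CPM. *Rbpms*, an RNA-binding protein, was at 92.2 ± 29.2 against 16.9 ± 5.31 CPM. *Reep5* and *Phlda2* were at 75.8 ± 14.7 and 50.1 ± 13.2 CPM, against 14.2 ± 4.33 and 9.29 ± 2.20 CPM. Lower genes included the homeodomain factor *Pbx3* (5.53 ± 6.89 against 59.6 ± 33.9 CPM) and *Paxip1*, a factor of the DNA damage response (13.0 ± 9.28 against 66.8 ± 8.29 CPM).

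Genes of the meiotic chromosome axis and recombination were present in somatic-low barcodes at levels between the neighbouring stages or overlapping them. Of 15 measured against undifferentiated spermatogonia, 1 was higher (*Rec8*, a meiotic cohesin, at 15.8 to 28.5 against 3.48 to 8.03 CPM) and 0 were lower, with a median log2 ratio of 0.65. Of 19 measured against late differentiating spermatogonia, 0 were higher and 6 lower, with a median of -0.86. *Sycp1*, a protein of the synaptonemal complex, was at 371, 368, 625 and 270 CPM, against 709 to 1089 CPM in the later stage. *Smc1b*, a meiotic cohesin, was at 331, 406, 549 and 285 CPM against 729 to 986 CPM. *Meiob*, which binds single-stranded DNA in recombination, had 1 UMI in somatic-low barcodes. Under the 20 Sertoli UMI limit, 0 of 14 genes were called against undifferentiated spermatogonia, so that the call of *Rec8* was lost, and 9 of 18 were lower than in late differentiating spermatogonia, among them these 6.

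Of 20 genes of G2 and M phase, 2 were higher than in undifferentiated spermatogonia, the spindle factor *Tpx2* (103 to 139 against 27.9 to 69.7 CPM) and *Birc5*, encoding survivin (99.6 to 266 against 50.4 to 81.1 CPM), and 1 was lower than in late differentiating spermatogonia, *Mki67* (28.5 to 118 against 182 to 407 CPM). Of 18 genes of S phase, 0 passed in either direction against undifferentiated spermatogonia, and 1, the E cyclin *Ccne2*, was lower than in late differentiating spermatogonia (23.7 to 71.2 against 116 to 155 CPM). Of 9 D cyclins and Cdk inhibitors, 2 were lower than in undifferentiated spermatogonia, *Ccnd2* and *Cdkn1c*. The Cdk inhibitors *Cdkn1a* and *Cdkn2c* were lower than in late differentiating spermatogonia. These counts depended on the limit used to leave out barcodes with somatic UMIs. The limit on Sertoli UMIs keeps 24 somatic-high barcodes. With the limit of 20 Sertoli UMIs per 10000, 4 genes of G2 and M phase were higher than in undifferentiated spermatogonia (*Tpx2*, *Birc5*, *Aurka* and *Nusap1*), and 3 were lower than in late differentiating spermatogonia (*Mki67*, *Top2a* and *Bub1*). Of 18 genes of S phase, 5 were then lower than in late differentiating spermatogonia (*Cdc6*, *Rrm2*, *Ccne1*, *Ccne2* and *Cdc45*). Among the D cyclins and Cdk inhibitors, *Ccnd2* and *Ccnd3* were then higher and *Ccnd1* and *Cdkn1a* lower than in late differentiating spermatogonia.

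None of 9 DNA methylation genes outside the rule passed in either comparison, where *Dnmt1*, the maintenance methyltransferase, was at 203 ± 52.6 CPM in somatic-low barcodes, 167 ± 22.9 CPM before and 278 ± 42.5 CPM after. Of 17 piRNA genes, 3 were lower than in undifferentiated spermatogonia (*Piwil4*, *Tdrd1* and *Tdrd5*) and 2 were higher than in late differentiating spermatogonia (*Asz1* and *Henmt1*). Of 16 genes of Kit and mTOR signalling, 1 was higher (*Kit*) and 2 lower (*Pik3ca* and *Ddit4*) than before. Of 6 retinoic acid genes, 2 were higher than in undifferentiated spermatogonia, among them *Rec8*, and 2 than in late differentiating spermatogonia, among them *Rarg*. Under the 20 Sertoli UMI limit, the calls of *Rec8*, *Rarg*, *Kit*, *Pik3ca*, *Asz1* and *Henmt1* were lost, and those of *Mbd2*, *Gtsf1*, *Foxo1* and *Foxo3* as lower than in undifferentiated spermatogonia were gained.

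Of 12 glycolysis genes, 1 was higher (*Pgk1*) and 2 lower (*Pkm* and the glucose transporter *Slc2a1*) than in undifferentiated spermatogonia, and 3 of 9 were higher than in late differentiating spermatogonia (*Hk2*, *Eno1* and *Pkm*). *Pkm*, pyruvate kinase, followed the order of the stages at 347 ± 145, 140 ± 38.0 and 64.9 ± 22.5 CPM. Sertoli-marker cells held 624 ± 199 CPM of *Pkm*. Of 83 ribosomal protein genes, 1 was higher and 1 lower than in undifferentiated and 1 lower than in late differentiating spermatogonia. Of 71 nuclear genes of the respiratory chain, 3 were higher than before, and 2 were higher and 1 lower than after. Of 11 X-linked germ cell genes outside the rule, 1 was higher (*Xlr4a*) and 1 lower (*Tktl1*) than before, and of 10 measured against the later stage 1 was higher (*Rhox10*) and 3 lower (*Tktl1*, *Rhox13* and *Xlr4a*). Of 7 growth factor receptors 1, *Ret*, was lower than before, and 0 of 6 was called against the later stage. Under the 20 Sertoli UMI limit, *Pkm*, *Xlr4a* and *Tktl1* were no longer called against the stage before, nor *Eno1* against the stage after, and *Eno1* was called lower than before and *Tex11* lower than after.

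The genotypes were then compared. *Sox17* could not serve as a check of the labels in these barcodes, since it had 1 UMI in all, in control 1. *Nr5a1*, whose promoter drives Cre, was at 34.6, 0, 62.7 and 43.8 CPM in the 270 barcodes and had no UMI in somatic-low barcodes. Sertoli-marker cells held 49.7 to 120 CPM of it.

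The share of selected barcodes among germ cells was 2.69% in control 1 (98 of 3644, exact binomial 95% interval 2.19 to 3.27), 2.31% in control 2 (35 of 1513, 1.62 to 3.20), 2.56% in *Sox17*-cKO 1 (87 of 3400, 2.05 to 3.15) and 2.68% in *Sox17*-cKO 2 (50 of 1863, 2.00 to 3.52). The intervals cover counting error only. The mean of *Sox17*-cKO exceeded that of control by 0.12 percentage points (two-sided exact permutation test over libraries, p = 1.0, where 2 against 2 libraries cannot go below 0.333). Without barcodes of 5 or more somatic UMIs, the shares were 2.24%, 3.27%, 1.87% and 2.40%, a difference of -0.616 points (exact permutation p = 0.667). Without control 2 the difference was -0.068 points. The direction thus changed with these choices. The genotypes overlapped over all 4 libraries, and without control 2 the remaining control lay above both *Sox17*-cKO libraries.

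No gene passed the test between *Sox17*-cKO and control in the 270 barcodes. UMIs were summed per library, and the model held no replicate block. With the edgeR quasi-likelihood test and Benjamini-Hochberg adjustment, 0 of 6605 genes tested were called (0%), with 118 at an unadjusted p below 0.05. Calls that appear with a replicate block are given in the closing section on processing. DESeq2 called 0, with 47 at an unadjusted p below 0.05. None of the genes in the 15 lists above passed. Without control 1, 72 genes were called, and without control 2, 51 were. In both cases 1 library stands for the control, its spread is taken from the *Sox17*-cKO pair, and control 2 holds only 35 of the barcodes.

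The smallest p among lower genes belonged to *Hist1h2ap*, a histone H2A gene on chromosome 13 from 21833026 to 21833507 on the minus strand. It had 102, 97, 29 and 3 UMIs, or 168, 607, 55.1 and 9.38 CPM, with no overlap of the genotypes (log2 fold change -3.49, SE 0.74, edgeR quasi-likelihood adjusted p = 0.999). Among higher genes it was *Wfdc1*, encoding a secreted protein with a whey acidic protein domain, at 44.5, 81.3, 327 and 241 CPM (log2 fold change 2.22, SE 0.48, edgeR adjusted p = 0.999). Of its 289 UMIs, 287 lay in somatic-high barcodes, and it had too few counts to be tested in somatic-low barcodes.

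The next genes by p were *Ptn*, *Wfdc18*, *Gm26917* and *Itih5* with higher and *Rpl35*, *Gm8186*, *Cdca7* and *Gm2044* with lower levels in *Sox17*-cKO, with log2 fold changes of 2.10 to 2.99 and -2.06 to -1.39. Without *Sox17*-cKO 2, the log2 fold change was 0.69 for *Gm26917* and 1.17 for *Itih5*, and that of *Wfdc18* ran from 1.70 to 7.55 over libraries left out. Without control 2 it was -0.86 for *Rpl35* and -1.04 for *Cdca7*. *Gm2044* had 136 UMIs in control 1 and 5 in control 2, and without control 1 its log2 fold change was 0.08 (n = 3 libraries). *Gm2044* and *Gm26917* are annotated as long noncoding RNAs and *Gm8186* as a processed pseudogene. *Wfdc18* had 7, 0, 15 and 38 UMIs. In somatic-low barcodes *Wfdc18* had 2 UMIs, *Ptn* 1 and *Itih5* 0, against 58, 43 and 112 in somatic-high barcodes. *Cdca7*, a cell division cycle associated gene, was at 97.3, 200, 38.0 and 62.5 CPM. *Rpl35*, a ribosomal protein of the large subunit, was at 886, 1676, 553 and 456 CPM, and ribosomal protein genes have many near-identical processed copies, so that its counts are uncertain.

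Within the 107 somatic-low barcodes, 1492 genes had enough counts to be tested, and 1 was called (0.067%), with 46 at an unadjusted p below 0.05. This gene was *Hist1h2ap*, with 36, 77, 10 and 3 UMIs or 284, 976, 110 and 42.7 CPM (log2 fold change -2.74, SE 0.54, edgeR quasi-likelihood adjusted p = 0.0169 after Benjamini-Hochberg adjustment). Control 2 held the highest value and *Sox17*-cKO 2 the lowest, and the libraries that share a Cell Ranger version, control 1 with *Sox17*-cKO 1 and control 2 with *Sox17*-cKO 2, each showed the lower value in *Sox17*-cKO. The call was lost without control 2 (edgeR adjusted p = 1.0) and without *Sox17*-cKO 2 (edgeR adjusted p = 0.246), with DESeq2 (adjusted p = 0.594) and with the limit of 20 Sertoli UMIs per 10000 (edgeR adjusted p = 0.973). The log2 fold changes there were -1.90, -2.27, -2.77 and -3.01 in the same order. The call held without control 1 (log2 fold change -3.32, edgeR adjusted p = 0.00018) and without *Sox17*-cKO 1 (-3.71, edgeR adjusted p = 0.00144). In somatic-high barcodes 0 of 5765 genes were called (0%) by edgeR, with 46 at an unadjusted p below 0.05, and 0 by DESeq2, with 15.

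*Hist1h2ap* was not particular to the selected barcodes. It was at 166, 111, 125.2 and 32.2 CPM in undifferentiated spermatogonia, at 779, 1061, 425 and 141 CPM in late differentiating spermatogonia and at 59.7, 31.1, 41.02 and 3.93 CPM in Sertoli-marker cells. In all 3 classes *Sox17*-cKO 2 was lowest, and in undifferentiated spermatogonia and Sertoli-marker cells the genotypes overlapped. Among somatic-low barcodes its genotype change did not pass as different from that in undifferentiated (interaction, edgeR quasi-likelihood adjusted p = 0.995) or late differentiating spermatogonia (edgeR adjusted p = 1.0). *Hist1h2ap* has near-identical copies among the clustered H2A genes, so reads could be divided between them and its counts are uncertain.

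**Figure D5:**
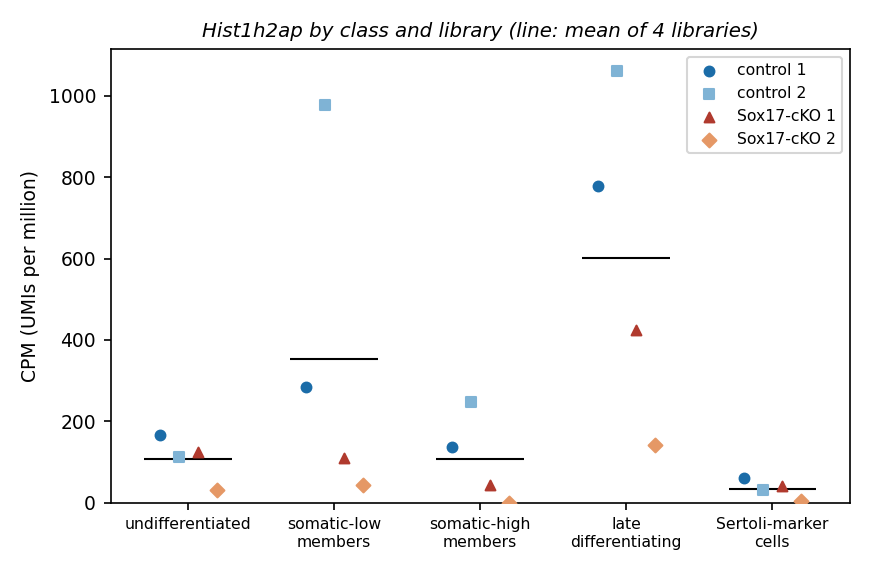
Level of *Hist1h2ap* in CPM (vertical axis, starting at 0) in 5 classes, with 1 point per library and a line at the mean of 4 libraries. In the somatic-low barcodes the values are 284 and 976 CPM in control and 110 and 42.7 CPM in *Sox17*-cKO, and *Sox17*-cKO 2 is the lowest library in every class.

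*Ptprf*, a receptor-type tyrosine phosphatase, was at 86.8 and 101 CPM in control and 263 and 370 CPM in *Sox17*-cKO among somatic-low barcodes (log2 fold change 1.83, SE 0.48, edgeR adjusted p = 0.361). *Aplp2*, a relative of the amyloid precursor protein, was at 110 and 127 against 483 and 213 CPM (log2 fold change 1.70, SE 0.47, edgeR adjusted p = 0.501). Neither passed in this fit, which has no replicate block. *Kit* did not pass either, with a log2 fold change of 0.97 (SE 0.50, edgeR adjusted p = 0.999) in somatic-low barcodes and 0.53 (SE 0.53, edgeR adjusted p = 0.999) in all 270. In somatic-low barcodes it was 2.92 without control 1 (edgeR adjusted p = 0.0952) and 0.21 without control 2.

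The genotype change in the 270 barcodes was last compared with that in the neighbouring stages by an interaction term. The model took the 8 sums of 2 classes with library as a block, so that the 2 sums of a library were paired. Against undifferentiated spermatogonia, edgeR called 0 of 8672 genes (0%), with 232 at an unadjusted p below 0.05, and DESeq2 called 0, with 37. Without control 1 there were 190 calls, and without control 2 there were 5. Against late differentiating spermatogonia, edgeR called 0 of 10074 genes (0%), with 160 at an unadjusted p below 0.05, and DESeq2 called 0, with 37. Without control 1, control 2 and *Sox17*-cKO 2 in turn, 52, 15 and 2 genes were called. *Kit* had a difference of 0.17 in log2 fold change from undifferentiated spermatogonia (SE 0.53, edgeR adjusted p = 1.0).

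Among somatic-low barcodes, the interaction with undifferentiated spermatogonia called 0 of 3422 genes (0%), with 108 at an unadjusted p below 0.05, and that with late differentiating spermatogonia 1 of 7219 (0.0139%). This gene was *P3h3*, a collagen prolyl hydroxylase, with 6, 1, 5 and 25 UMIs in the somatic-low barcodes (47.3, 12.7, 54.9 and 356 CPM). In late differentiating spermatogonia with fewer than 5 somatic UMIs it was at 114, 98.3, 82.4 and 73.5 CPM. The difference in log2 fold change was 2.90 (SE 0.63, edgeR quasi-likelihood adjusted p = 0.0294), and 25 of the 37 UMIs lay in *Sox17*-cKO 2. Over all 270 barcodes it was 1.59 (SE 0.55, edgeR adjusted p = 1.0). With the limit of 20 Sertoli UMIs per 10000 in place of 5 somatic UMIs, edgeR called 0 of 9337 genes, so that the call of *P3h3* was lost.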

How the data were processed

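Single cells were captured with a 10x Genomics 3' kit. The authors aligned and counted the reads with Cell Ranger, which uses STAR, against mm10 (GRCm38), and deposited for each library a matrix of UMI counts per gene and barcode, which are whole numbers and not normalized. Per the file headers, control 1 and *Sox17*-cKO 1 were counted with Cell Ranger 6.0.2, and control 2 and *Sox17*-cKO 2 with 6.1.2. The counts as deposited were the input here, and the combined tables of the series were not used. Mitochondrial content was not limited, whereas the study's methods limit it to a lower share.

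The barcodes of each class were summed per library. CPM is relative to the summed UMIs, and log2 ratios used a pseudocount of 1 CPM. Genes were called between classes at a fold of 2 with no overlap of libraries and a mean of at least 20 CPM in the higher class. Genotypes and interactions were tested on the sums with edgeR 4.0.16 (quasi-likelihood test, TMM scaling, filter on low counts, Benjamini-Hochberg adjustment, threshold 0.05), with DESeq2 1.42.0 as an alternative, in R 4.3.3. The fits were tested on simulated data. Shares were compared by exact permutation in scipy 1.17.1, and *Kit* shares were thinned to 2000 UMIs with a fixed seed. Named genes were those of the lists, those with the largest ratios (at least 50 CPM in the higher class) and those with the smallest p in each direction. The members, lists and tests were chosen with earlier results of these data known, and the division at 5 somatic UMIs, its use together with other alternatives and the genes named from it were examined after the values were seen. Results for some items are not reported here.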

Additional observations from a re-analysis of the deposited data

Results flagged for a closer look

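The genotype change of *P3h3* differed between somatic-low early differentiating and late differentiating spermatogonia by 2.90 on the log2 scale in the interaction test of edgeR, where all libraries are fitted together (SE 0.63, quasi-likelihood adjusted p = 0.0294). Of its 37 UMIs in the somatic-low barcodes, 25 came from *Sox17*-cKO 2, and over all 270 barcodes the difference was 1.59 (SE 0.55, edgeR adjusted p = 1.0). The call was lost with the limit of 20 Sertoli UMIs per 10000, where 0 of 9337 genes were called.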

How the results depend on the processing

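The 270 barcodes limit every result, since the 107 somatic-low ones hold 70271 to 126777 UMIs per library. Between genotypes, where edgeR called 0 genes, no filter on low counts gave 1, leaving out a library 0 to 72, and leaving out barcodes with 5 or more somatic UMIs 1. Leaving out a library and these barcodes together gave 0 to 2. For the interaction with undifferentiated spermatogonia, no filter gave 1 call and leaving out a library 0 to 190, and with late differentiating spermatogonia leaving out a library gave 0 to 52 and leaving out somatic-high barcodes 1. The cause of the calls gained without a library was not tested, though each such fit has 3 libraries. DESeq2 called 0 genes in each of these 3 comparisons.

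With the replicate number as a block, 2 genes were called (*Hist1h2ap* and *Wfdc1*), and 4 with the block among somatic-low barcodes (*Hist1h2ap*, *Ptprf*, *Aplp2* and *Yae1d1*). Deviations of samples with the same number correlated at 0.359 over 6605 genes in all barcodes and 0.488 over 1492 genes in somatic-low barcodes, but there are only 2 pairs, the labels state no shared litter or day, and the number coincides with the Cell Ranger version.

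The difference in share turned to -0.184 points among barcodes below 10% mitochondrial UMIs, to -0.616 points without somatic-high barcodes, to -0.289 points with at least 2 UMIs of *Sohlh1* and *Dnmt3b*, and to -0.117 points without barcodes of 20 or more Sertoli UMIs per 10000, an alternative added after seeing the data. Leaving out a library gave -0.068 to 0.308 points.

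Against undifferentiated spermatogonia 2045 genes were called in both directions together. A mean of at least 50 CPM gave 1175, leaving out somatic-high barcodes 441, at least 2 UMIs of *Sohlh1* and *Dnmt3b* 1306, and the limit of 20 Sertoli UMIs per 10000 675. Leaving out a library and somatic-high barcodes gave 779, 758, 819 and 665, since 3 libraries overlap less often than 4. Against late differentiating spermatogonia the 1680 calls became 954, 651, 1045 and 705 in the same order, and 1011, 918, 1066 and 955 with a library left out. The share of barcodes with a *Kit* UMI moved from 11.6% to 19.2% without thinning, 34.3% without somatic-high barcodes and 23.4% with the limit of 20 Sertoli UMIs per 10000.

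Of 183 alternative values of log2 fold changes for 13 named genes, 182 kept their direction. The exception was *Gm2044*, with a range of -2.75 to 0.078 over libraries left out, the latter without control 1. *Ptprf* and *Aplp2* are counted there for somatic-low barcodes only. Over all barcodes *Ptprf* was at 0.48, and at -0.13 without *Sox17*-cKO 2, and *Yae1d1*, which is not among the 13, was at 0.59, and at -0.24 in somatic-high barcodes. All 243 alternative values of 47 log2 ratios between stages kept their direction. Leaving out a library could not reverse these ratios, since the genes were chosen for no overlap of libraries. The 13 genes above were chosen by the smallest p in these data, apart from *Kit*, so that their kept directions are a description.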
